A study of Mus musculus with 16 samples.

Results

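Interstitial matrix is the mesh of collagen fibrils, elastic fibres, proteoglycans and adhesive glycoproteins that lies between muscle fibres and carries force across a muscle. The genes described here encode collagens outside the basement membrane, other proteins of that mesh, the enzymes that fold, trim and cross-link collagen, and the proteases that cut matrix with their inhibitors. They were followed across 4 groups of mouse quadriceps muscle. The list names 51 genes, and a gene was measured where a probe annotated to it had a detection p under 0.05 on at least 4 of the 16 arrays. That left 37 of the 51, out of 8725 genes measured in all, each read by its probe with the highest mean. Of the other 14 genes, Col5a2, Fbln5, Efemp1, Vcan, Postn, Thbs1, Thbs4 and Loxl2 had a probe that was above background on 0 arrays, and Col6a3, Col8a1, Col12a1, Fbn1, Efemp2 and Fn1 had no probe annotated to them in the table used here.

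All mice were adults of the FVB/n background. HSALR mice carry a transgene of human skeletal muscle actin with a long CUG repeat in its RNA, which is held in the nuclei of muscle fibres, and they serve as a model of myotonic dystrophy. Antisense oligos (ASO) are short synthetic strands that pair with a chosen RNA. Arrays from HSALR mice given ASO 190401, HSALR mice given ASO 445236, HSALR mice given saline and wild-type (WT) mice given saline numbered 4 each, and subcutaneous injections were given biweekly over 4 weeks. The design asks how transgenic differed from WT muscle and how each oligo changed transgenic muscle. Whether arrays of a group stand for separate animals is not in the labels, so the p-values speak only of spread among the arrays at hand. Mouse Acta1, the nearest relative of the transgene on the array, was called in 0 of 6 comparisons (adjusted p from 0.0842 to 0.875), and whether its probe also reads the human transcript is not known here. Between 10835 and 11700 of 25697 probes were above background on each array. The HSALR saline arrays stood apart as the dimmest before normalization, with a raw intensity at the 75th percentile of 134 to 187 under ASO 190401, 133 to 152 under ASO 445236, 103 to 120 in HSALR saline and 129 to 151 in WT, and the part of this in the comparisons with HSALR saline was not tested. The ASO 445236 and HSALR saline arrays shared 1 chip and the ASO 190401 and WT arrays the other, so only ASO 445236 against HSALR saline and ASO 190401 against WT lie within a chip. In the other 4 comparisons chip and group cannot be told apart. The labels give no replicate numbers, so replicates are numbered here within each group by position on the chip.

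Fibroblasts make most interstitial matrix in resting muscle. Fibrillar collagens are made as long precursor chains, hydroxylated and folded into triple helices in the endoplasmic reticulum, trimmed outside the cell and then cross-linked by lysyl oxidases. Small leucine-rich proteoglycans such as decorin coat the fibrils and set their width, elastin and fibulins build elastic fibres, and collagen VI forms a beaded network close to the muscle fibre whose loss in humans causes muscular dystrophy. In whole muscle fewer cells of a type and less RNA per cell cannot be told apart.

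Values are log2 normalized intensities, on which a step of 1 doubles the signal, and each probe has its own brightness, so levels are compared between groups and never between genes. A gene is called where limma's moderated test gave a Benjamini-Hochberg adjusted p under 0.05 over the 8725 genes, and values after ± are standard errors unless marked SD. In these terms 26 of the 37 genes were called in at least 1 of the 6 comparisons and 11 in none. The mean was lowest in ASO 190401 muscle for 24 of the 37 and highest in WT muscle for 28. The same counts over all genes were not made, so these numbers do not set the matrix genes apart.

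Under ASO 190401 against HSALR saline 10 of 37 genes fell and 2 rose, against 7.71% and 8.09% of all genes. Under ASO 445236 against HSALR saline 1 fell and 4 rose, where 6.73% of all genes fell and 6.81% rose. In HSALR saline against WT muscle 11 fell and 1 rose, with 13.1% and 14.1% over all genes. With ASO 190401 against WT 19 fell and 1 rose, beside 5.31% and 5.09% over all genes, and with ASO 445236 against WT 9 fell and 1 rose, beside 5.04% and 6.25%. Between the oligos, 12 genes were lower under ASO 190401 than under ASO 445236 and 0 higher (1.95% and 1.07% over all genes). The median differences of the 37 genes, in the same order, were -0.25, 0.036, -0.32, -0.62, -0.28 and -0.44, where the medians of all genes lay between -0.017 and 0.026. With each array scaled by its median in place of quantiles, the medians of the 37 genes were -0.026 for ASO 190401 against HSALR saline, 0.24 for ASO 445236 against HSALR saline and -0.094 for ASO 445236 against WT. Median scaling moved the medians of all genes too, as given further on. The values under it are therefore not to be set against the all-gene medians above. Comparisons that share a group share its arrays, so their counts are not independent of each other.

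**Figure D1:**
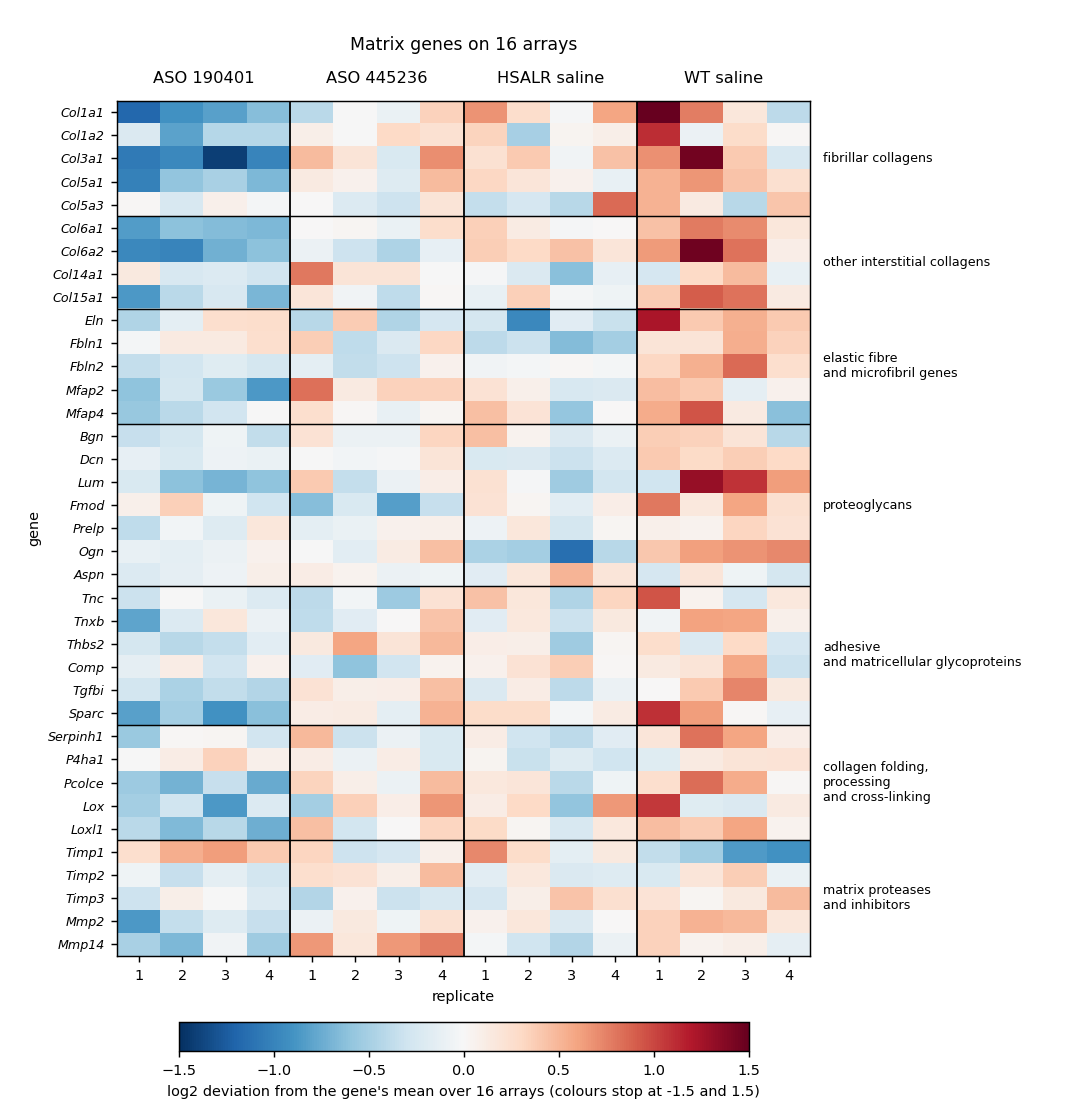
Level of the 37 measured matrix genes (rows, grouped by role) on the 16 arrays (columns, by group and replicate), as log2 deviation from each gene's mean over all arrays. Blue is below and red above that mean. The collagen rows at the top are blue on all 4 ASO 190401 arrays, except Col5a3 and Col14a1, which lie near background, and most rows are red in WT.

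Fibrillar collagens, the rope-like chains of tendon-like fibrils, held the members with the largest falls under ASO 190401. Col1a1 encodes the main chain of type I collagen. Col1a1 read 7.81, 8.08, 8.17 and 8.34 under ASO 190401, 8.58, 8.97, 8.89 and 9.33 under ASO 445236, 9.66, 9.25, 8.97 and 9.58 in HSALR saline and 10.60, 9.75, 9.16 and 8.59 in WT muscle. The 4 ASO 190401 arrays lay below all 12 others, while the WT arrays spread over the whole range of the HSALR saline arrays. Col1a1 fell under ASO 190401 both against HSALR saline (-1.26 ± 0.29, adjusted p = 0.00603) and against WT (-1.42 ± 0.29, adjusted p = 0.00381), but was not called against ASO 445236 (-0.84 ± 0.29, adjusted p = 0.133) or in HSALR saline against WT (-0.16 ± 0.29, adjusted p = 0.722). Its partner chain in the type I helix is encoded by Col1a2. Col1a2 read 5.67, 5.09, 5.45 and 5.46 under ASO 190401, 5.98, 5.88, 6.19 and 6.12 under ASO 445236, 6.22, 5.39, 5.92 and 5.98 in HSALR saline and 7.0, 5.8, 6.16 and 5.91 in WT muscle. The ASO 190401 arrays were below all WT and all ASO 445236 arrays but overlapped HSALR saline, and 1 of them was not above background. Col1a2 fell under ASO 190401 against WT (-0.8 ± 0.23, adjusted p = 0.0308) and was not called against HSALR saline (-0.46 ± 0.23, adjusted p = 0.19).

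Type III collagen, the product of Col3a1, forms thin fibrils around and between muscle fibres. Col3a1 read 7.12, 7.21, 6.77 and 7.19 under ASO 190401, 8.66, 8.38, 7.95 and 8.88 under ASO 445236, 8.41, 8.57, 8.12 and 8.62 in HSALR saline and 8.86, 9.62, 8.57 and 7.95 in WT muscle. All 4 ASO 190401 arrays were below the 12 others, and the other 3 groups overlapped. The gene fell against HSALR saline (-1.36 ± 0.26, adjusted p = 0.00139), against WT (-1.68 ± 0.26, adjusted p = 0.000307) and against ASO 445236 (-1.39 ± 0.26, adjusted p = 0.00615), that is to 0.39, 0.313 and 0.381 times their levels, and a second, dimmer Col3a1 probe was above background on only 3 arrays. Col5a1 encodes a type V chain that starts fibril assembly. Col5a1 read 7.67, 8.08, 8.19 and 8.0 under ASO 190401, 8.81, 8.74, 8.48 and 9.16 under ASO 445236, 8.99, 8.87, 8.74 and 8.57 in HSALR saline and 9.2, 9.34, 9.11 and 8.92 in WT muscle. Here too the ASO 190401 arrays stood below all others. Its falls were -0.8 ± 0.14, adjusted p = 0.000827 against HSALR saline, -1.15 ± 0.14, adjusted p = 3.41e-05 against WT and -0.81 ± 0.14, adjusted p = 0.00507 against ASO 445236. Col5a3, another type V chain, was above background on only 4 arrays, averaged 5.13 under ASO 190401, 5.09 under ASO 445236, 5.13 in HSALR saline and 5.34 in WT, and was not called in any comparison (adjusted p of 0.584 or more). None of the fibrillar collagens was called under ASO 445236 against HSALR saline or in HSALR saline against WT. Over the 5 genes the median difference was -0.80 for ASO 190401 against HSALR saline and 0.0086 for ASO 445236 against HSALR saline.

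**Figure D2:**
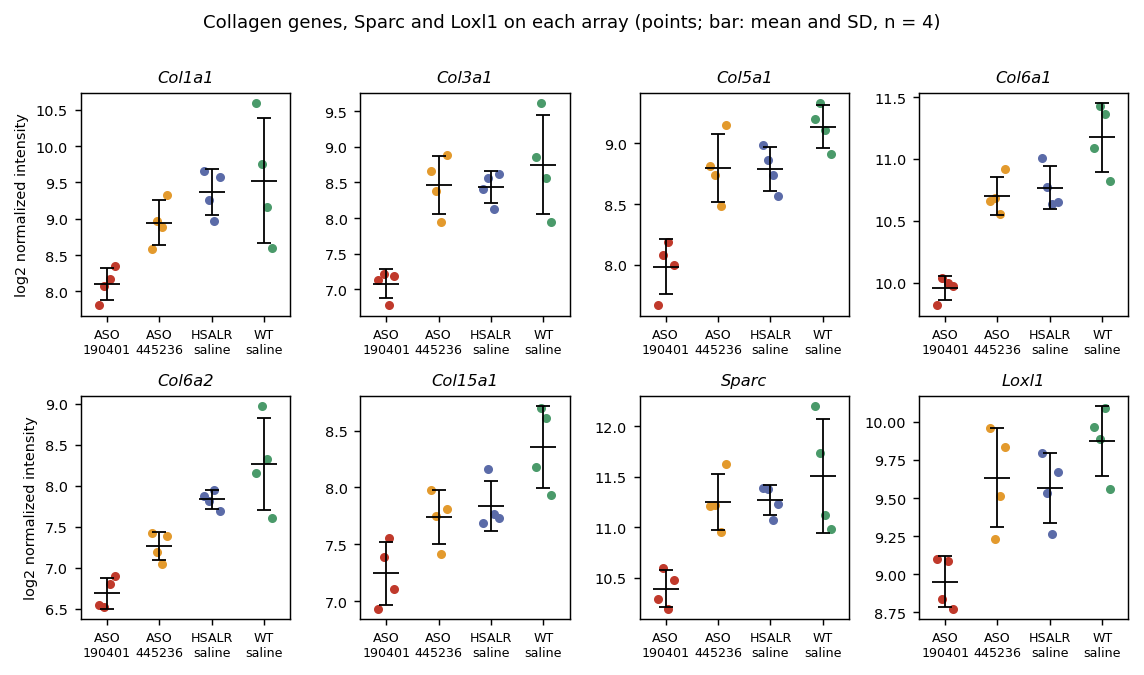
Log2 normalized intensity of 8 matrix genes on each array (points) with group mean and SD (bars, n = 4), for ASO 190401, ASO 445236, HSALR saline and WT saline from left to right. In 7 of the 8 panels the ASO 190401 points lie below every other point, and in the Col15a1 panel they overlap ASO 445236.

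Collagen VI is made of chains from Col6a1, Col6a2 and other genes, and the 2 measured chains showed the same order of arrays at the low end. Col6a1 read 9.82, 10.04, 10 and 9.98 under ASO 190401, 10.66, 10.68, 10.55 and 10.92 under ASO 445236, 11.01, 10.78, 10.63 and 10.65 in HSALR saline and 11.09, 11.43, 11.36 and 10.82 in WT muscle. The ASO 190401 arrays lay at 10.04 or below and all others at 10.55 or above. Col6a1 fell under ASO 190401 against HSALR saline (-0.81 ± 0.12, adjusted p = 0.000156), WT (-1.22 ± 0.12, adjusted p = 1.87e-06) and ASO 445236 (-0.75 ± 0.12, adjusted p = 0.00273), and it was also lower than WT in HSALR saline (-0.41 ± 0.12, adjusted p = 0.0156) and ASO 445236 muscle (-0.47 ± 0.12, adjusted p = 0.0164). A second probe of the gene gave differences of -0.69, -0.91 and -0.65 for the same 3 ASO 190401 comparisons. Col6a2 read 6.55, 6.52, 6.8 and 6.9 under ASO 190401, 7.42, 7.2, 7.05 and 7.39 under ASO 445236, 7.88, 7.81, 7.95 and 7.69 in HSALR saline and 8.15, 8.98, 8.33 and 7.61 in WT muscle. Again the 4 ASO 190401 arrays were the lowest, and the ASO 445236 arrays lay below all HSALR saline and WT arrays. Col6a2 fell under ASO 190401 against HSALR saline (-1.14 ± 0.2, adjusted p = 0.000685) and WT (-1.57 ± 0.2, adjusted p = 4.23e-05) and under ASO 445236 against WT (-1.0 ± 0.2, adjusted p = 0.00356). Against HSALR saline the ASO 445236 value missed the threshold (-0.57 ± 0.2, adjusted p = 0.0653). Col15a1 encodes a collagen that links the basement membrane to the fibrils outside it. Col15a1 read 6.94, 7.39, 7.55 and 7.11 under ASO 190401, 7.98, 7.75, 7.42 and 7.81 under ASO 445236, 7.69, 8.16, 7.77 and 7.73 in HSALR saline and 8.18, 8.7, 8.61 and 7.93 in WT muscle. The ASO 190401 arrays were below all HSALR saline and WT arrays and overlapped ASO 445236. It was lower than WT in all 3 transgenic groups, by -1.11 ± 0.18, adjusted p = 0.000491 under ASO 190401, -0.62 ± 0.18, adjusted p = 0.032 under ASO 445236 and -0.52 ± 0.18, adjusted p = 0.0378 with saline, and lower under ASO 190401 than with saline (-0.59 ± 0.18, adjusted p = 0.0311). Col14a1, a collagen that decorates fibril surfaces, was above background on 6 arrays, averaged 5.17 under ASO 190401, 5.61 under ASO 445236, 5.07 in HSALR saline and 5.42 in WT, and was called in 0 comparisons.

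The 8 genes whose ASO 190401 arrays all lay below the 12 other arrays were Col1a1, Col3a1, Col5a1, Col6a1, Col6a2, Mfap2, Sparc and Loxl1. Over all 8725 genes 37 had that arrangement, which is 0.424%, while the same count for ASO 445236, HSALR saline and WT was 0, 1 (Ogn) and 1 (Timp1) of the 37 matrix genes, against 0.275%, 3.01% and 2.50% of all genes.

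Of the 6 members that fell under ASO 190401 against HSALR saline in every alternative processing and without any single array (Col1a1, Col3a1, Col5a1, Col6a1, Col6a2 and Sparc), 5 have an entry in RefSeq's table of promoters on GRCm38.p6. The 120 bases before their transcription start are printed. These genes were chosen because they fell in the same comparison, so their common direction is set by that choice. Capitals mark the letters TATAAA, as in a TATA box, or GGGCGG, as in a GC box. The motif CCAAT was searched too, and both strands were read for each.
Col3a1: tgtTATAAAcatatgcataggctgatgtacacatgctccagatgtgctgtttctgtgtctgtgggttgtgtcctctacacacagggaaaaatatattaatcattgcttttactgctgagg
Col5a1: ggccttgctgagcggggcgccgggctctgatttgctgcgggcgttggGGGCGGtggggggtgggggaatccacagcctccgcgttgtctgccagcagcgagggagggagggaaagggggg
Col6a1: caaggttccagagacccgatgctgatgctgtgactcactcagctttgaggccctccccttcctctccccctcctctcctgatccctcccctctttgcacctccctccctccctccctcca
Col6a2: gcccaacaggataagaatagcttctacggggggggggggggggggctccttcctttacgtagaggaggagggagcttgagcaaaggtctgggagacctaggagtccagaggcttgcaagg
Sparc: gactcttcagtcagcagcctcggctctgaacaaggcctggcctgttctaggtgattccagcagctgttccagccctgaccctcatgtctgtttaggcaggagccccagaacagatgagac
Their positions are chr1:45311418-45311537 on the plus strand for Col3a1, chr2:27886305-27886424 on the plus strand for Col5a1, chr10:76726045-76726164 on the minus strand for Col6a1, chr10:76623631-76623750 on the minus strand for Col6a2, chr11:55420081-55420200 on the minus strand for Sparc. Col6a2 has 2 starts in the table, and the upstream one is shown. The TATAAA match of Col3a1 begins 117 bases before the start, at the far end of the window, where a TATA box that sets a start does not usually lie. The GGGCGG match of Col5a1 begins 73 bases before the start, and none of the 3 motifs was in the windows of Col6a1, Col6a2 and Sparc. Over the 250 bases before the start, 18.5% of the 27 measured matrix genes with an entry held TATAAA anywhere, 33.3% held CCAAT and 63.0% held GGGCGG. Among all 27025 genes in the table the shares were 14.3%, 37.5% and 35.4%. Those genes were not limited to ones measured in this muscle, as the 27 were. The sets are therefore unlike, and the shares do not test whether matrix genes differ from other measured genes.

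Among the 5 elastic fibre and microfibril genes, Fbln2, Mfap2 and Mfap4 had their lowest mean under ASO 190401, and Eln and Fbln1 in HSALR saline. Elastin, the rubber-like core of elastic fibres, is encoded by Eln. Eln read 6.39, 6.7, 7.1 and 7.12 under ASO 190401, 6.43, 7.23, 6.39 and 6.6 under ASO 445236, 6.58, 5.89, 6.68 and 6.51 in HSALR saline and 8.07, 7.24, 7.38 and 7.24 in WT muscle. All WT arrays were above all 12 transgenic arrays. Eln was lower than WT in HSALR saline (-1.07 ± 0.23, adjusted p = 0.00219) and ASO 445236 muscle (-0.82 ± 0.23, adjusted p = 0.0302), and under ASO 190401 the difference from WT did not pass the test (-0.65 ± 0.23, adjusted p = 0.0851). Fbln2, a fibulin that bridges elastic fibres and basement membrane, had its WT arrays above all others too. Fbln2 read 8.83, 8.91, 9.01 and 8.93 under ASO 190401, 9.04, 8.82, 8.88 and 9.26 under ASO 445236, 9.13, 9.17, 9.21 and 9.16 in HSALR saline and 9.5, 9.72, 10.04 and 9.44 in WT muscle. It was lower than WT in each transgenic group, by -0.75 ± 0.12, adjusted p = 0.00035 under ASO 190401, -0.67 ± 0.12, adjusted p = 0.00133 under ASO 445236 and -0.51 ± 0.12, adjusted p = 0.00328 with saline, and it was called for neither oligo against saline (-0.25 ± 0.12, adjusted p = 0.168 and -0.17 ± 0.12, adjusted p = 0.395).

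Fbln1, a fibulin found in elastic fibres and blood vessel walls, was lowest in HSALR saline muscle. Fbln1 read 9.66, 9.82, 9.82 and 9.93 under ASO 190401, 10.05, 9.3, 9.47 and 9.99 under ASO 445236, 9.28, 9.36, 9.03 and 9.17 in HSALR saline and 9.87, 9.87, 10.23 and 10.03 in WT muscle. The HSALR saline arrays lay below all WT and all ASO 190401 arrays and overlapped ASO 445236. Fbln1 rose under ASO 190401 (0.6 ± 0.14, adjusted p = 0.00758) and ASO 445236 (0.49 ± 0.14, adjusted p = 0.0258) against HSALR saline, and fell in HSALR saline against WT (-0.79 ± 0.14, adjusted p = 0.000371). These calls rest on the brightest of 3 probes: the other 2 were above background on 7 and 11 arrays, and averaging all 3 gave an adjusted p of 0.444, 0.0799 and 0.0908. Mfap2 encodes a small glycoprotein of fibrillin microfibrils. Mfap2 read 5.7, 6.04, 5.75 and 5.44 under ASO 190401, 7.13, 6.44, 6.65 and 6.65 under ASO 445236, 6.52, 6.38, 6.07 and 6.09 in HSALR saline and 6.76, 6.7, 6.18 and 6.37 in WT muscle. Its ASO 190401 arrays were the lowest 4 of the 16. Mfap2 was lower under ASO 190401 than under ASO 445236 (-0.99 ± 0.18, adjusted p = 0.00615) and in WT (-0.77 ± 0.18, adjusted p = 0.0105), and just missed the threshold against HSALR saline (-0.53 ± 0.18, adjusted p = 0.0537). Averaging its 2 probes ended both calls (adjusted p = 0.0636 and 0.06). Mfap4, another microfibril protein, averaged 6.56 under ASO 190401, 6.93 under ASO 445236, 6.90 in HSALR saline and 7.13 in WT and was called in 0 comparisons.

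Small leucine-rich proteoglycans split into genes that were low in HSALR saline and genes that were not. Decorin, the product of Dcn, binds collagen fibrils and holds TGF-beta in the matrix. Dcn read 13.52, 13.41, 13.56 and 13.54 under ASO 190401, 13.63, 13.59, 13.62 and 13.83 under ASO 445236, 13.41, 13.43, 13.31 and 13.43 in HSALR saline and 14.03, 13.93, 14.01 and 13.94 in WT muscle. WT arrays stood above all 12 transgenic arrays, and the ASO 445236 arrays above all HSALR saline arrays. Dcn was lower than WT in HSALR saline (-0.58 ± 0.061, adjusted p = 1.10e-06), ASO 190401 (-0.47 ± 0.061, adjusted p = 5.45e-05) and ASO 445236 muscle (-0.31 ± 0.061, adjusted p = 0.00322). It rose under ASO 445236 against HSALR saline (0.27 ± 0.061, adjusted p = 0.00481), while the ASO 190401 difference was not called (0.12 ± 0.061, adjusted p = 0.218). Its second probe gave -0.92 for HSALR saline against WT and 0.44 for ASO 445236 against HSALR saline. Ogn encodes osteoglycin, a proteoglycan of the same family. Ogn read 10.28, 10.25, 10.31 and 10.46 under ASO 190401, 10.38, 10.23, 10.51 and 10.85 under ASO 445236, 9.92, 9.88, 9.26 and 9.98 in HSALR saline and 10.80, 11.01, 11.06 and 11.11 in WT muscle. The HSALR saline arrays lay below the 12 others, replicate 3 lowest among them. Ogn fell in HSALR saline against WT (-1.24 ± 0.14, adjusted p = 3.19e-06) and rose against HSALR saline under both ASO 190401 (0.56 ± 0.14, adjusted p = 0.0108) and ASO 445236 (0.73 ± 0.14, adjusted p = 0.00159). Both oligo groups were lower than WT, by -0.67 ± 0.14, adjusted p = 0.00458 and -0.5 ± 0.14, adjusted p = 0.0271. The 2 dimmer probes, not above background on 3 of the 4 HSALR saline arrays, gave -1.03 and -1.17 for HSALR saline against WT. For ASO 190401 against WT they gave -0.70 and -0.50, and for ASO 445236 against WT -0.18 and 0.060. Averaging the gene's probes ended the call of ASO 445236 against WT (adjusted p = 0.383), so that call rests on the brightest probe.

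Lumican, from Lum, also shapes fibrils. Lum read 9.28, 8.89, 8.82 and 8.91 under ASO 190401, 9.91, 9.15, 9.42 and 9.61 under ASO 445236, 9.74, 9.5, 8.98 and 9.24 in HSALR saline and 9.22, 10.83, 10.60 and 10.14 in WT muscle. Its WT arrays were widely spread and overlapped those of every other group. Lum was lower than WT in HSALR saline (-0.83 ± 0.26, adjusted p = 0.0206) and ASO 190401 muscle (-1.22 ± 0.26, adjusted p = 0.00462). Fmod encodes fibromodulin, which competes with lumican for the same site on collagen and guides cross-linking. Fmod read 8.72, 9.0, 8.58 and 8.34 under ASO 190401, 8.0, 8.41, 7.82 and 8.3 under ASO 445236, 8.86, 8.68, 8.49 and 8.75 in HSALR saline and 9.44, 8.8, 9.24 and 8.88 in WT muscle. Here the ASO 445236 arrays were the low ones, below all HSALR saline and WT arrays, with overlap to ASO 190401. Fmod fell under ASO 445236 against HSALR saline (-0.56 ± 0.16, adjusted p = 0.0284) and WT (-0.95 ± 0.16, adjusted p = 0.00116), and ASO 190401 against HSALR saline was not called (-0.032 ± 0.16, adjusted p = 0.921). Its second, dimmer probe gave -0.41 for ASO 445236 against HSALR saline and -0.56 against WT. Averaging the gene's probes ended the call against HSALR saline (adjusted p = 0.172). The other 3 genes of the family were called in 0 comparisons. Biglycan (Bgn) averaged 10.48 under ASO 190401, 10.83 under ASO 445236, 10.79 in HSALR saline and 10.87 in WT. Prelp averaged 11.29 under ASO 190401, 11.37 under ASO 445236, 11.37 in HSALR saline and 11.57 in WT. Asporin (Aspn), above background on 7 arrays, averaged 5.22 under ASO 190401, 5.31 under ASO 445236, 5.48 in HSALR saline and 5.21 in WT.

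**Figure D3:**
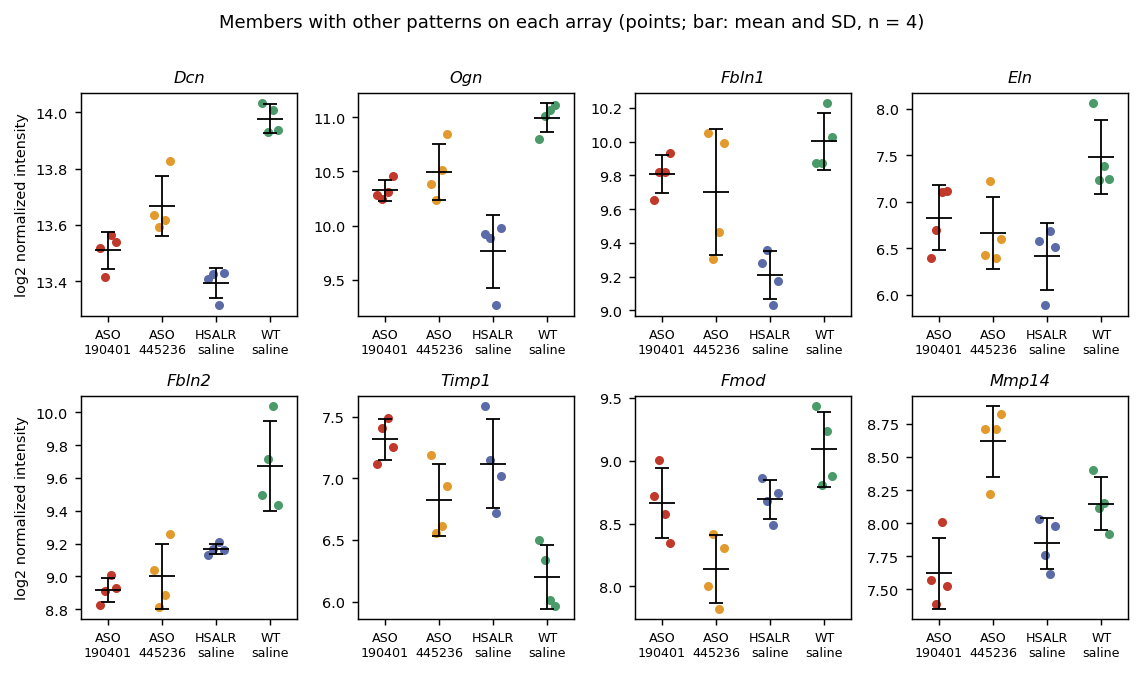
Log2 normalized intensity of 8 further matrix genes on each array (points) with group mean and SD (bars, n = 4), for ASO 190401, ASO 445236, HSALR saline and WT saline from left to right. HSALR saline points are the lowest for Ogn, WT points are the lowest for Timp1 and the highest for Dcn, Eln and Fbln2, and ASO 445236 points are below both saline groups for Fmod and above HSALR saline for Mmp14.

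Among the adhesive and matricellular glycoproteins, which bind cells and collagen without forming fibres, Sparc was the one whose ASO 190401 arrays all lay lowest. Its product, osteonectin, binds collagen and assists fibril assembly. Sparc read 10.29, 10.60, 10.20 and 10.48 under ASO 190401, 11.21, 11.22, 10.95 and 11.62 under ASO 445236, 11.39, 11.38, 11.08 and 11.23 in HSALR saline and 12.20, 11.73, 11.12 and 10.99 in WT muscle. The ASO 190401 arrays were below the other 12. Sparc fell under ASO 190401 against HSALR saline (-0.88 ± 0.2, adjusted p = 0.0054), WT (-1.12 ± 0.2, adjusted p = 0.00114) and ASO 445236 (-0.86 ± 0.2, adjusted p = 0.0214), with -1.27, -1.57 and -1.2 on a second probe. Tgfbi encodes a TGF-beta-induced protein that links collagen to integrins. Tgfbi read 9.6, 9.4, 9.5 and 9.43 under ASO 190401, 10.09, 9.96, 9.98 and 10.32 under ASO 445236, 9.66, 9.98, 9.48 and 9.79 in HSALR saline and 9.88, 10.26, 10.60 and 10.02 in WT muscle. The ASO 190401 arrays lay below all ASO 445236 and WT arrays and overlapped HSALR saline. It was lower under ASO 190401 than under ASO 445236 (-0.6 ± 0.13, adjusted p = 0.0187) and in WT (-0.71 ± 0.13, adjusted p = 0.00197), and lower in HSALR saline than in WT (-0.47 ± 0.13, adjusted p = 0.0143). Thbs2, thrombospondin 2, is an adhesive protein that restrains vessel growth. Thbs2 read 8.33, 8.18, 8.24 and 8.44 under ASO 190401, 8.74, 9.19, 8.79 and 9.08 under ASO 445236, 8.7, 8.69, 8.07 and 8.63 in HSALR saline and 8.86, 8.38, 8.9 and 8.34 in WT muscle. All ASO 445236 arrays were above all ASO 190401 and all HSALR saline arrays. Thbs2 was lower under ASO 190401 than under ASO 445236 (-0.65 ± 0.16, adjusted p = 0.0295) and was not called under ASO 445236 against HSALR saline (0.43 ± 0.16, adjusted p = 0.078). Tenascin C (Tnc) averaged 6.83 under ASO 190401, 6.80 under ASO 445236, 7.11 in HSALR saline and 7.21 in WT, tenascin X (Tnxb) 9.53 under ASO 190401, 9.73 under ASO 445236, 9.72 in HSALR saline and 10.06 in WT and the cartilage matrix protein Comp 7.25 under ASO 190401, 7.06 under ASO 445236, 7.48 in HSALR saline and 7.46 in WT, with 0 calls.

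The enzymes that fold, trim and cross-link collagen were next. Serpinh1 encodes HSP47, the chaperone of procollagen. Serpinh1 read 7.0, 7.57, 7.58 and 7.27 under ASO 190401, 8.04, 7.24, 7.47 and 7.33 under ASO 445236, 7.67, 7.25, 7.17 and 7.38 in HSALR saline and 7.74, 8.37, 8.15 and 7.65 in WT muscle. WT arrays were above all ASO 190401 arrays and overlapped the other groups. Serpinh1 was lower than WT under ASO 190401 (-0.62 ± 0.19, adjusted p = 0.0465) and in HSALR saline (-0.61 ± 0.19, adjusted p = 0.0245), and ASO 190401 against HSALR saline was not called (-0.011 ± 0.19, adjusted p = 0.979). Pcolce enhances the cleavage of the procollagen end. Pcolce read 7.38, 7.21, 7.57 and 7.17 under ASO 190401, 8.26, 8.01, 7.83 and 8.4 under ASO 445236, 8.08, 8.1, 7.52 and 7.86 in HSALR saline and 8.17, 8.76, 8.48 and 7.94 in WT muscle. ASO 190401 arrays were below all ASO 445236 and WT arrays, and 1 HSALR saline array lay within their range. Pcolce fell under ASO 190401 against HSALR saline (-0.56 ± 0.18, adjusted p = 0.0367), WT (-1.01 ± 0.18, adjusted p = 0.00101) and ASO 445236 (-0.79 ± 0.18, adjusted p = 0.0185). Loxl1, a lysyl oxidase that cross-links elastin and collagen, had the same order. Loxl1 read 9.1, 8.84, 9.09 and 8.78 under ASO 190401, 9.96, 9.23, 9.51 and 9.83 under ASO 445236, 9.8, 9.53, 9.26 and 9.67 in HSALR saline and 9.97, 9.88, 10.09 and 9.56 in WT muscle. Here the ASO 190401 arrays did not overlap any group, and the falls were -0.61 ± 0.15, adjusted p = 0.0103 against HSALR saline, -0.92 ± 0.15, adjusted p = 0.000604 against WT and -0.68 ± 0.15, adjusted p = 0.0189 against ASO 445236. With median scaling the Loxl1 differences from HSALR saline and ASO 445236 were -0.37 and -0.66 and were not called (adjusted p = 0.134 and 0.0542). Lox, the founding lysyl oxidase, averaged 7.56 under ASO 190401, 8.18 under ASO 445236, 8.15 in HSALR saline and 8.23 in WT and was not called, nor was the prolyl hydroxylase P4ha1 at 7.64 under ASO 190401, 7.49 under ASO 445236, 7.31 in HSALR saline and 7.60 in WT, whose largest difference was 0.33 ± 0.13, adjusted p = 0.0971 for ASO 190401 against HSALR saline.

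Timp1, an inhibitor of metalloproteases, was the one matrix gene called higher than WT in each transgenic group. Timp1 read 7.12, 7.41, 7.49 and 7.25 under ASO 190401, 7.19, 6.56, 6.61 and 6.94 under ASO 445236, 7.59, 7.14, 6.72 and 7.02 in HSALR saline and 6.5, 6.34, 6.01 and 5.96 in WT muscle. The WT arrays lay below all 12 transgenic arrays. Timp1 was higher than WT under ASO 190401 (1.12 ± 0.19, adjusted p = 0.000668), under ASO 445236 (0.62 ± 0.19, adjusted p = 0.0371) and with saline (0.92 ± 0.19, adjusted p = 0.0012), and neither oligo was called against saline (0.2 ± 0.19, adjusted p = 0.519 and -0.29 ± 0.19, adjusted p = 0.339). Its second probe gave 1.08, 0.55 and 0.84 against WT. Mmp14 encodes a membrane-bound collagenase that also activates MMP2. Mmp14 read 7.57, 7.39, 8.01 and 7.52 under ASO 190401, 8.71, 8.22, 8.71 and 8.82 under ASO 445236, 8.03, 7.76, 7.62 and 7.98 in HSALR saline and 8.4, 8.11, 8.15 and 7.92 in WT muscle. All ASO 445236 arrays were above all HSALR saline and ASO 190401 arrays. Mmp14 rose under ASO 445236 against HSALR saline (0.77 ± 0.16, adjusted p = 0.00236) and was lower under ASO 190401 than under ASO 445236 (-1.0 ± 0.16, adjusted p = 0.00231) and in WT (-0.52 ± 0.16, adjusted p = 0.037).

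Mmp2, a gelatinase of connective tissue, was lowest under ASO 190401. Mmp2 read 9.67, 10.17, 10.34 and 10.18 under ASO 190401, 10.44, 10.67, 10.46 and 10.76 under ASO 445236, 10.60, 10.70, 10.31 and 10.53 in HSALR saline and 10.88, 11.04, 11.02 and 10.70 in WT muscle. Its ASO 190401 arrays were below all WT and ASO 445236 arrays and overlapped HSALR saline. Mmp2 fell under ASO 190401 against HSALR saline (-0.45 ± 0.13, adjusted p = 0.0217), WT (-0.82 ± 0.13, adjusted p = 0.000334) and ASO 445236 (-0.49 ± 0.13, adjusted p = 0.0393), and in HSALR saline against WT (-0.37 ± 0.13, adjusted p = 0.0352). Timp2, an inhibitor that helps MMP14 to activate MMP2, parted the oligo groups. Timp2 read 11.20, 10.92, 11.12 and 10.98 under ASO 190401, 11.52, 11.48, 11.36 and 11.74 under ASO 445236, 11.11, 11.42, 11.05 and 11.07 in HSALR saline and 11.03, 11.44, 11.63 and 11.16 in WT muscle. All ASO 190401 arrays were below all ASO 445236 arrays (-0.47 ± 0.12, adjusted p = 0.038), and the HSALR saline and WT arrays overlapped ASO 190401. That Timp2 call was lost in 10 of 25 alternatives, processing changes and left-out arrays together. Timp3, an inhibitor bound to the matrix, was lower than WT under ASO 445236 (-0.45 ± 0.14, adjusted p = 0.0444). Timp3 read 10.17, 10.57, 10.47 and 10.28 under ASO 190401, 10.04, 10.55, 10.16 and 10.24 under ASO 445236, 10.23, 10.57, 10.92 and 10.72 in HSALR saline and 10.68, 10.51, 10.63 and 10.96 in WT muscle. The ASO 445236 and WT arrays overlapped.

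**Figure D4:**
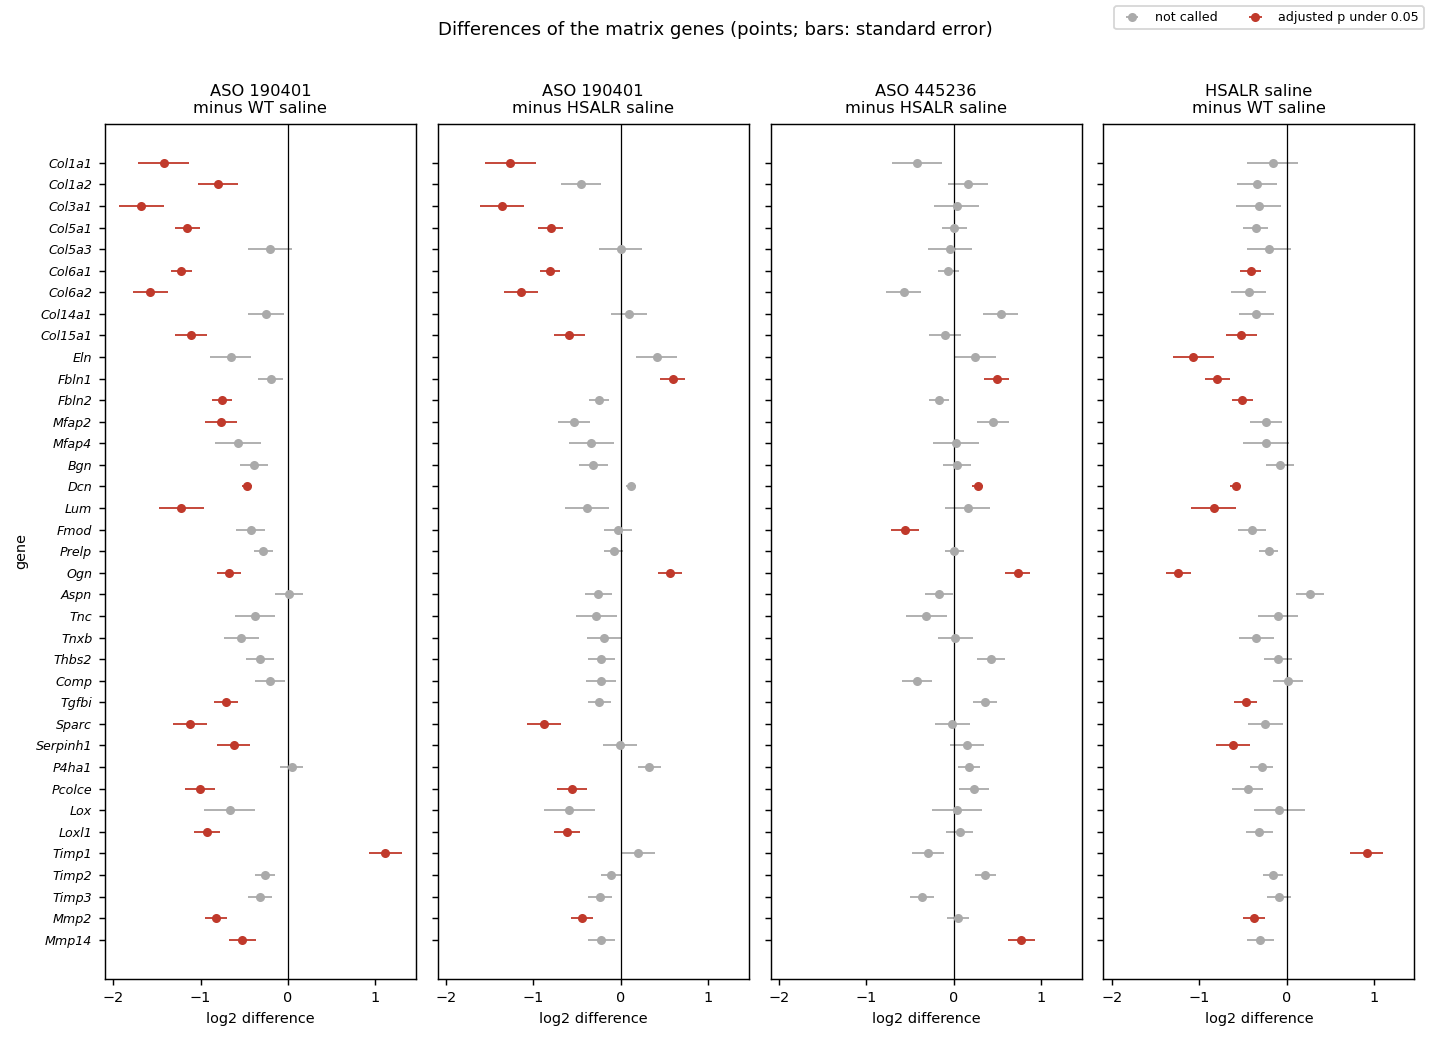
Log2 differences (points) with standard errors (bars) of the 37 genes in 4 comparisons, red where the adjusted p is under 0.05. From left to right, 20, 12, 5 and 12 genes are red. In ASO 190401 minus WT saline 19 of the red points lie below 0, and in ASO 445236 minus HSALR saline 4 of 5 lie above.

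ASO 190401 against HSALR saline asks what that oligo changed in transgenic muscle. The 10 genes that fell hold 6 of the 9 measured collagens, with Sparc and the collagen-processing genes Pcolce and Loxl1 and the protease gene Mmp2. Fbln1 and Ogn rose, and both were lower in HSALR saline than in WT, a comparison that shares the HSALR saline arrays. In 10 genes the ASO 190401 arrays lay wholly below and in 2 wholly above the HSALR saline arrays (10.5% and 11.8% of all genes). With median scaling in place of quantile scaling the median of all genes moved by 0.16 to 0.18 in this comparison and in ASO 445236 against HSALR saline, and 6 genes then fell and 4 rose, with the calls of Col15a1, Pcolce, Loxl1 and Mmp2 lost (adjusted p 0.134 to 0.295). Single arrays left out ended the calls of Pcolce (HSALR saline replicate 1, 2 or 4 or ASO 190401 replicate 1, 2 or 4), Mmp2 (HSALR saline replicate 1 or 2 or ASO 190401 replicate 1) and Col15a1 (HSALR saline replicate 2, 3 or 4 or ASO 190401 replicate 1 or 4). The adjusted p was then 0.0503 to 0.11.

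ASO 445236 against HSALR saline asks the same of the other oligo, on 1 chip. The genes that rose were Ogn, Mmp14, Dcn and Fbln1, and Fmod fell, while 0 of 9 collagens were called. Without overlap, 5 genes were higher and 2 lower under ASO 445236 (9.80% and 9.82% of all genes). At an unadjusted p under 0.05 there were 13 genes. The share of all genes at that threshold was not counted, so this number does not set the matrix genes apart. Fitted on the 8 arrays of that chip alone, 6 rose and 2 fell, and with median scaling 8 rose and 0 fell. The shares of all genes called in these fits are not given here. Median scaling also moved the median of all genes in this comparison, and the part of that move in the count was not tested. The calls of Fbln1 (without ASO 445236 replicate 1 or 4 or HSALR saline replicate 3 or 4) and Fmod (without ASO 445236 replicate 1 or 3 or HSALR saline replicate 1, 2 or 4) were lost at adjusted p of 0.0583 to 0.0983, and that of Fmod also with median scaling (adjusted p = 0.17).

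HSALR saline against WT asks what the transgene changed. Ogn, Eln, Lum, Fbln1, Serpinh1, Dcn, Col15a1, Fbln2, Tgfbi, Col6a1 and Mmp2 fell, and Timp1 rose. By role, 3 of 7 proteoglycans, 3 of 5 elastic fibre genes and 2 of 4 other interstitial collagens fell, against 13.1% of all genes. Of the fibrillar collagens 0 of 5 was called, though all 5 differences were negative (median -0.32). In 5 genes the HSALR saline arrays lay wholly below and in 1 wholly above the WT arrays, against 12.4% and 13.7% of all genes. Eln, Fbln2, Dcn, Ogn and Timp1 were called in every alternative and without any array. The count of lower genes fell to 5 without HSALR saline replicate 3 or WT replicate 3 and to 7 without HSALR saline replicate 4 or WT replicate 2, and the calls lost without these or without HSALR saline replicate 1 or 2 were those of Col15a1, Serpinh1, Col6a1, Lum, Tgfbi and Mmp2 (adjusted p 0.0513 to 0.126). Median scaling ended the calls of Col6a1, Col15a1 and Mmp2 (adjusted p 0.0509 to 0.113).

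ASO 190401 muscle against WT, within 1 chip, held the most differences. Genes of every role were lower, with 7 of 9 collagens, the glycoprotein genes Sparc and Tgfbi, Pcolce, Loxl1 and Serpinh1, Dcn, Lum and Ogn, Fbln2 and Mfap2, and Mmp2 and Mmp14, and Timp1 was higher. In 18 genes the ASO 190401 arrays lay wholly below and in 1 wholly above WT (6.34% and 7.53% of all genes). On the 8 arrays of that chip alone 16 genes were lower and 1 higher, and median scaling ended the calls of Ogn, Serpinh1 and Mmp14 (adjusted p 0.0675 to 0.165). Col1a2 (without ASO 190401 replicate 2, 3 or 4 or WT replicate 1 or 3), Mmp14 (without ASO 190401 replicate 1, 2 or 4 or WT replicate 1, 2 or 3) and Serpinh1 lost their calls at adjusted p of 0.0514 to 0.143, Serpinh1 without any of 10 arrays, among them ASO 190401 replicate 1, 2 and 4, WT replicate 2 and 3, ASO 445236 replicate 3 and 4 and HSALR saline replicate 2, 3 and 4.

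ASO 445236 muscle against WT had Col6a2, Fmod, Eln, Fbln2, Col15a1, Ogn, Col6a1, Timp3 and Dcn lower and Timp1 higher. In 5 genes the ASO 445236 arrays lay wholly below and in 1 wholly above WT (5.86% and 7.29%). Only Col6a2, Fbln2 and Fmod were called in every alternative. The count of lower genes was 4 without ASO 445236 replicate 3, 5 without WT replicate 3 and 4 with median scaling, which ended the calls of Col6a1, Col15a1, Dcn, Ogn and Timp3 (adjusted p 0.123 to 0.27). The Timp1 call was lost without ASO 445236 replicate 1 or 4 or WT replicate 2, 3 or 4 (adjusted p 0.0517 to 0.102), and Eln, Ogn, Timp3, Col15a1 and Col6a1 were each lost without 3 or more of the arrays, at up to 0.131.

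ASO 190401 against ASO 445236 sets the oligos side by side, across chips. Mmp14, Col3a1, Mfap2, Sparc, Col5a1, Pcolce, Col6a1, Loxl1, Thbs2, Tgfbi, Mmp2 and Timp2 were lower under ASO 190401. In 16 genes the ASO 190401 arrays lay wholly below the ASO 445236 arrays and in 0 wholly above (4.96% and 4.95% of all genes). Col3a1, Col5a1, Col6a1 and Mmp14 were called in every alternative. The count was 5 without ASO 445236 replicate 4 or ASO 190401 replicate 4, 6 without ASO 190401 replicate 2, and 7 with median scaling, without Thbs2, Tgfbi, Loxl1, Timp2 and Mmp2 (adjusted p 0.0525 to 0.127), and calls lost without one array had adjusted p from 0.052 to 0.139.

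Some arrays stood at the edge of their group in more of the 37 genes than others. The mean deviation of the 37 genes from their 16-array means was -0.32 ± 0.07 in ASO 190401, 0.04 ± 0.13 in ASO 445236, -0.02 ± 0.14 in HSALR saline and 0.30 ± 0.17 in WT muscle (SD, n = 4 each). HSALR saline replicate 3 was the lowest of its group in 27 of the 37 genes, and WT replicate 4 in 19. ASO 445236 replicate 4 was the highest of its group in 20 and HSALR saline replicate 1 in 18. These counts were not made over all genes. For the fibrillar collagens the ASO 190401 arrays ran from -0.70 to -0.55 and for the other interstitial collagens from -0.63 to -0.46, below all other arrays in both.

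**Figure D5:**
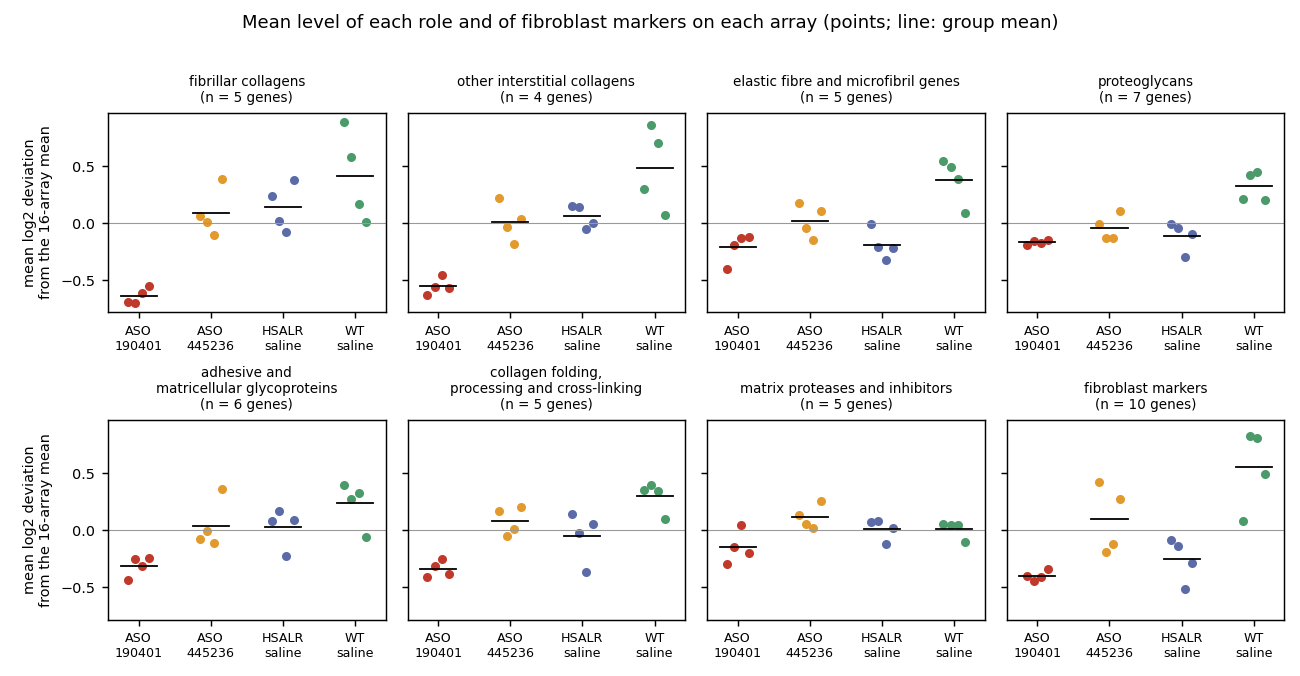
Mean log2 deviation from the 16-array mean, over the measured genes of each role and over 10 fibroblast markers, on each array (points; line at the group mean). ASO 190401 arrays lie below all others for both collagen roles, and for the fibroblast markers they overlap the HSALR saline arrays.

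Markers of fibroblasts moved with the matrix genes in some comparisons. Of 11 listed markers 10 were measured, all above background on all 16 arrays. Against HSALR saline, 0 of 10 were called under ASO 190401 (median difference -0.20), where 6 of 9 collagens fell, and 3 rose under ASO 445236, namely Pi16 (1.06 ± 0.18, adjusted p = 0.000459), Scara5 (0.95 ± 0.19, adjusted p = 0.00231) and Dpt (0.82 ± 0.19, adjusted p = 0.00697). In HSALR saline against WT 6 fell, with Scara5 (-1.3 ± 0.19, adjusted p = 5.20e-05), Pi16 (-1.2 ± 0.18, adjusted p = 6.03e-05) and Dpt (-1.01 ± 0.19, adjusted p = 0.000585) the clearest. Under ASO 190401 against WT 8 fell (median -0.85), led by Cd248 (-1.19 ± 0.17, adjusted p = 0.000176), Mfap5 (-1.17 ± 0.17, adjusted p = 0.000211) and Scara5 (-1.08 ± 0.19, adjusted p = 0.00109), and 3 fell under ASO 445236 against WT and 3 in ASO 190401 against ASO 445236. The summed intensity of the 10 markers was 3013 to 3483 in ASO 190401, 3643 to 5695 in ASO 445236, 2883 to 3844 in HSALR saline and 4338 to 7417 in WT muscle. Over all genes 6.81% rose under ASO 445236 against HSALR saline and 13.1% fell in HSALR saline against WT. The shares that fell were 5.31% under ASO 190401 against WT, 5.04% under ASO 445236 against WT and 1.95% in ASO 190401 against ASO 445236. The part of fibroblast number in the matrix differences was not tested.

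Other cell types were followed the same way, and their part was not tested either. The shares of all genes to set beside these counts are those given above for each comparison. Tendon cell markers had 7 of 10 members measured, with Tnmd, Cilp and Cpxm2 above background on 0 arrays, and 0 of 7 called for either oligo against saline. In HSALR saline against WT 2 tendon markers were higher and 0 lower, and under ASO 190401 against WT 1 was higher and 0 lower. Myeloid markers rose in 7 of 12 under ASO 445236 against HSALR saline, where Mmp14 also rose, among them Fcgr3 (1.45 ± 0.19, adjusted p = 4.40e-05), Adgre1 (2.0 ± 0.31, adjusted p = 0.00023) and Lyz2 (1.94 ± 0.33, adjusted p = 0.000619), and in 1 of 12 under ASO 190401, Aif1 (0.56 ± 0.17, adjusted p = 0.0367). Under ASO 190401 against ASO 445236, where 12 matrix genes were lower, 6 of 12 myeloid markers were lower too (median difference -0.86). Their summed intensity was 1387 to 2112 in ASO 190401, 2663 to 4238 in ASO 445236, 1037 to 1936 in HSALR saline and 1546 to 3257 in WT muscle. All 5 measured adipocyte markers fell in HSALR saline against WT, such as Lpl (-0.39 ± 0.091, adjusted p = 0.00372) and Adipoq (-1.42 ± 0.42, adjusted p = 0.0164), 4 of 5 fell under ASO 190401 against WT (median difference -0.95), where 19 matrix genes fell, and 3 of 5 rose under ASO 445236 against HSALR saline, among them Lep (1.27 ± 0.27, adjusted p = 0.00398). Endothelial markers had 2 of 9 lower in HSALR saline against WT, 3 of 9 lower under ASO 190401 against WT and 4 of 9 lower under ASO 445236 against WT, with Vwf lower in HSALR saline (-0.69 ± 0.15, adjusted p = 0.00226). Of 10 skeletal muscle markers, all measured, 2 rose and 1 fell under ASO 445236 against HSALR saline and 2 rose and 1 fell in HSALR saline against WT, and 1 was higher and 0 lower under ASO 190401 against WT. Of 8 Schwann cell markers 2 were measured, and both were lower under ASO 190401 against WT. Smooth muscle and pericyte markers had 1 of 7 lower and satellite cell markers 0 of 3 called in that comparison.

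TGF-beta signalling, the main inducer of collagen genes, was represented by 16 measured genes of 20. Under ASO 190401 against HSALR saline 3 rose and 2 fell, under ASO 445236 2 and 2, and in HSALR saline against WT 4 rose and 5 fell. Over all genes, in the same order, 8.09% rose and 7.71% fell, 6.81% and 6.73%, and 14.1% and 13.1%. Tgfb3, one of its ligands, fell under ASO 190401 (-0.77 ± 0.12, adjusted p = 0.000192) and ASO 445236 (-0.95 ± 0.12, adjusted p = 1.90e-05) against HSALR saline and was higher in HSALR saline than in WT (0.94 ± 0.12, adjusted p = 9.07e-06). Tgfbr2, a receptor, rose under ASO 445236 against HSALR saline (0.47 ± 0.095, adjusted p = 0.00263) and fell in HSALR saline against WT (-0.61 ± 0.095, adjusted p = 9.90e-05). Ltbp4, which stores the latent ligand in elastic fibres, was lower than WT under ASO 445236 (-1.59 ± 0.15, adjusted p = 1.07e-06), under ASO 190401 (-0.95 ± 0.15, adjusted p = 0.000359) and with saline (-0.85 ± 0.15, adjusted p = 0.000316).

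Further genes of collagen synthesis had 15 of 22 measured. Plod2, which hydroxylates lysines for cross-links, rose under ASO 190401 against HSALR saline (0.91 ± 0.2, adjusted p = 0.00442) and fell in HSALR saline against WT (-1.07 ± 0.2, adjusted p = 0.000531). P4ha2, a prolyl hydroxylase, did likewise (0.47 ± 0.14, adjusted p = 0.0283 and -0.7 ± 0.14, adjusted p = 0.000911), and the procollagen protease Bmp1 was lower than WT under ASO 190401 (-0.84 ± 0.15, adjusted p = 0.000924) and under ASO 445236 (-0.64 ± 0.15, adjusted p = 0.00895). No Plod2 probe was above background on more than 1 of the 4 HSALR saline arrays, and both Plod2 calls share those arrays. In all, 2 rose and 2 fell under ASO 190401 against HSALR saline, 0 rose and 2 fell under ASO 445236, and 2 rose and 5 fell in HSALR saline against WT. The shares over all genes were 8.09% and 7.71%, 6.81% and 6.73%, and 14.1% and 13.1%. Other proteases and inhibitors had 14 of 23 measured, and 4 rose under ASO 445236 against HSALR saline, among them the lysosomal collagen-degrading cathepsins Ctsb (0.6 ± 0.084, adjusted p = 9.06e-05) and Ctsk (0.96 ± 0.18, adjusted p = 0.0011), while 1 rose under ASO 190401, Mmp9 (0.53 ± 0.15, adjusted p = 0.0196). Over all genes 6.81% rose under ASO 445236 and 8.09% under ASO 190401. No Mmp9 probe was above background on more than 2 of the 4 HSALR saline arrays. Htra1, a serine protease of the matrix, was lower than WT in HSALR saline (-1.49 ± 0.13, adjusted p = 1.43e-07).

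Matrix receptors had 14 of 23 measured, with 2 lower under ASO 190401 and 1 lower under ASO 445236 against HSALR saline, beside 7.71% and 6.73% of all genes. Itga5, the fibronectin receptor chain, was in both (-1.1 ± 0.21, adjusted p = 0.00172 and -1.2 ± 0.21, adjusted p = 0.000761) and was higher in HSALR saline than in WT (1.22 ± 0.21, adjusted p = 0.000305). Itga11, a collagen-binding integrin chain, was lower than WT under ASO 190401 (-1.01 ± 0.13, adjusted p = 6.46e-05), under ASO 445236 (-0.75 ± 0.13, adjusted p = 0.0015) and with saline (-0.74 ± 0.13, adjusted p = 0.000388). Of 24 measured genes of 43 in a list of further interstitial matrix genes, 2 fell under ASO 190401 against HSALR saline, Ccdc80 (-0.84 ± 0.13, adjusted p = 0.00032) and Srpx2 (-0.48 ± 0.13, adjusted p = 0.0197), and 0 rose, beside 7.71% and 8.09% of all genes. Under ASO 190401 against WT 8 fell and 1 rose (5.31% and 5.09% over all genes). In HSALR saline against WT 7 fell and 1 rose (13.1% and 14.1%). Ccdc80 encodes a secreted protein that binds matrix. It rose under ASO 445236 against HSALR saline (0.55 ± 0.13, adjusted p = 0.00972) and was lower under ASO 190401 than under ASO 445236 (-1.38 ± 0.13, adjusted p = 3.42e-05).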

How the data were processed

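Total RNA from quadriceps (100 ng per array, per the labels' protocols) was hybridised to Illumina arrays, 4 per group, a number that sets the precision. The deposited non-normalized table gives an intensity per probe and array and, per the file headers, a detection p-value. The authors' deposited processed matrix, also of linear intensity (array medians from 26.4 to 26.5), served as an alternative. The submitters' processing notes name affy, with no version or role, and how background was treated is not given in the sources.

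Normexp correction from the detection p-values (offset of 16), quantile normalization and log2 were run in R 4.3.3 and limma 3.58.1. Of 25697 probes 12364 passed the filter (detection p under 0.05, 4 arrays or more), and the probe with the highest mean stood for each of 8725 genes, named through GEO's platform annotation. In 2 columns 60 cells were not numbers and were treated as missing, 0 of them in matrix genes. A model with 1 mean per group and an intensity trend gave 6 two-sided comparisons, adjusted by Benjamini-Hochberg within each. Arrays of a group correlated at 0.978 to 0.992, and 0 pairs were identical.

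The matrix genes and the other gene lists were chosen with earlier results of these data known. The text gives each array's value for every matrix gene called in at least 1 comparison, and up to 3 called genes of each other list per comparison, by smallest adjusted p. Tested on simulated data for ASO 190401 against HSALR saline over 8725 genes, the fit recovered 4, 26, 43 and 50 of 50 genes changed 1.2-, 1.5-, 2- and 4-fold, with 7 false calls. The simulated noise was independent between arrays, with no offset between chips and no difference in brightness between groups. It therefore cannot speak to errors from either. Alternatives were the offset, no background correction, median scaling, probe filters, the mean of a gene's probes, no trend, the deposited matrix, chip position as a covariate, 1 chip alone and each array left out.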

Additional observations from a re-analysis of the deposited data

Results flagged for a closer look

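Within each group of 4 arrays the highest and the lowest array of each of the 37 matrix genes were set against the nearest of the others. In 4 of 148 such groups the gap, as a share of the group's range, was past Dixon's critical value, and chance alone passes about 1 in 20. All 4 were in HSALR saline muscle. Ogn read 9.26 on replicate 3, the lowest, with the nearest array at 9.88. Thbs2 read 8.07 on the same array, with the nearest at 8.63. Col5a3 read 6.02 on replicate 4, the highest, with the nearest at 4.92, and was near background on the others. Timp2 read 11.42 on replicate 2, the highest, with the nearest at 11.11.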

How the results depend on the processing

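Under 26 alternatives, array leave-outs included (25 for the 4 comparisons across chips), 0 of the called matrix genes changed direction. Called in all of them were 7 of 12 genes for ASO 190401 against HSALR saline, 3 of 5 for ASO 445236 against HSALR saline, 5 of 12 for HSALR saline against WT, 15 of 20 for ASO 190401 against WT, 3 of 10 for ASO 445236 against WT and 4 of 12 between the oligos. Median scaling gave 4 higher and 6 lower for ASO 190401 against HSALR saline, 8 and 0 for ASO 445236 against HSALR saline, 4 and 4 for ASO 445236 against WT, and 7 lower between the oligos. It moved the median of all genes by up to 0.18, and the matrix genes' medians were then -0.026, 0.24, -0.094 and -0.44. The mean of a gene's probes gave 1 higher for ASO 190401 against HSALR saline, 0 lower for ASO 445236 against HSALR saline and 0 higher for ASO 445236 against WT. A filter of all 16 arrays gave 2 higher for ASO 445236 against WT. With the authors' deposited matrix Col1a2 and Serpinh1 lost their calls for ASO 190401 against WT (adjusted p = 0.0538 and 0.0509). There Timp3 lost its call for ASO 445236 against WT (adjusted p = 0.0504). Timp2 and Mmp2 lost theirs between the oligos (adjusted p = 0.0513 and 0.053). For ASO 445236 against HSALR saline, 0 were lower with chip position as a covariate and 2 on the 8 arrays of its chip. The causes were not tested, and the shares of all genes called under each alternative are not given here. Leaving out 1 array gave 7 to 11 lower and 2 higher for ASO 190401 against HSALR saline, 3 to 6 higher and 0 to 2 lower for ASO 445236 against HSALR saline, 5 to 14 lower and 1 higher for HSALR saline against WT, 16 to 21 lower and 1 higher for ASO 190401 against WT, 4 to 10 lower and 0 to 2 higher for ASO 445236 against WT, and 5 to 13 lower and 0 higher between the oligos. No paired analysis was possible because the labels give no replicate numbers. Col5a3, Col14a1 and Aspn were near background, which limits what could be called there.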
